A study of Mus musculus with 4 samples.

Results

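The transcripts of p53 and of 9 of its classical target genes were measured in mouse primary myotubes treated with EDA-A2. The members were chosen by name (Trp53, Mdm2, Cdkn1a, Ccng1, Sesn1, Sesn2, Phlda3, Zmat3, Btg2 and Plk2), and all 10 were found among the 53647 genes counted. All 10 passed the filter on low counts, which kept 15173 genes for the tests. Bulk RNA sequencing compared 2 libraries of control myotubes with 2 libraries of myotubes that received recombinant EDA-A2 at 250 ng/mL for 24 h. The cells were wild type in both groups, came from limb muscle of pups 2 to 3 days old, were differentiated in horse serum and were harvested 72 h after differentiation began. The labels do not say whether the 2 libraries of a group came from separate cultures or animals, so the p-values measure the spread between these libraries, which may be technical.

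EDA-A2 is a splice form of ectodysplasin A, a ligand of the TNF family, and its receptor EDA2R is known to be a transcriptional target of p53. The p53 protein is a transcription factor that is held at a low level by the ubiquitin ligase MDM2 and is stabilized after DNA damage and other stress. It then binds paired half-sites in its target genes and raises transcripts that stop the cell cycle, repair DNA, promote cell death or hold back growth signals. Because much of its control acts on the protein, the Trp53 transcript need not follow p53 activity. In muscle, Cdkn1a is also switched on by MyoD when myoblasts leave the cell cycle, independently of p53.

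Counts on genes summed to between 29444155 and 29746863 per library, and all 9 myotube markers were detected in each library. The 2 control libraries differed more from each other (chi-square per gene 6.88) than did the 2 EDA-A2 libraries (3.48). Normalized counts summed over the 9 myotube markers were 663126 to 695161 in control and 508502 to 508592 after EDA-A2, and 3 of these markers, Myh3, Acta1 and Myh8, fell while Mymx rose. The 5 myoblast markers summed to 13232 to 13976 and to 11368 to 11776, with 1 lower, Cdh15. Dividing-cell markers summed to 20541 to 24360 in control and 22354 to 22790 after EDA-A2, and none of the 5 passed the test. Fibroblast markers summed to 5480 to 9602 in control and 5114 to 6209 after EDA-A2, and smooth muscle and pericyte markers to 16764 to 20215 and 20514 to 21926. Macrophage markers reached 371, endothelial markers 36 and T cell markers 20 in any library, summed over each list. Among these markers, C1qa, Cd4, Cd8a, Emcn, Lum and Thy1 had 0 counts in every library, while Acta2 and Col1a1 had 15717 to 21210.3 and 4675 to 9277 normalized counts, and in the list of smooth muscle and pericyte markers Pdgfrb fell. In bulk libraries fewer cells of a type and less RNA per cell cannot be told apart, and the part of these shifts in the results was not tested.

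Of the 10 genes, Trp53 and Plk2 rose after EDA-A2 and the other 8 did not pass the test. Genes called in either direction were 4.57% of all genes tested, with 2.45% higher and 2.13% lower, and none of the 10 was called lower. A gene was called where its p-value from edgeR's quasi-likelihood test, adjusted by the Benjamini-Hochberg method over all 15173 genes, was under 0.05. Both EDA-A2 libraries lay above both control libraries for 6 of the 10 genes, a pattern seen in 22.8% of all genes tested. They lay below both for 1 gene, Sesn1 (22.2% of all genes), and the groups overlapped for Cdkn1a, Phlda3 and Zmat3. The median log2 fold change of the 10 genes was 0.16, against -0.00 for all genes tested.

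**Figure D1:**
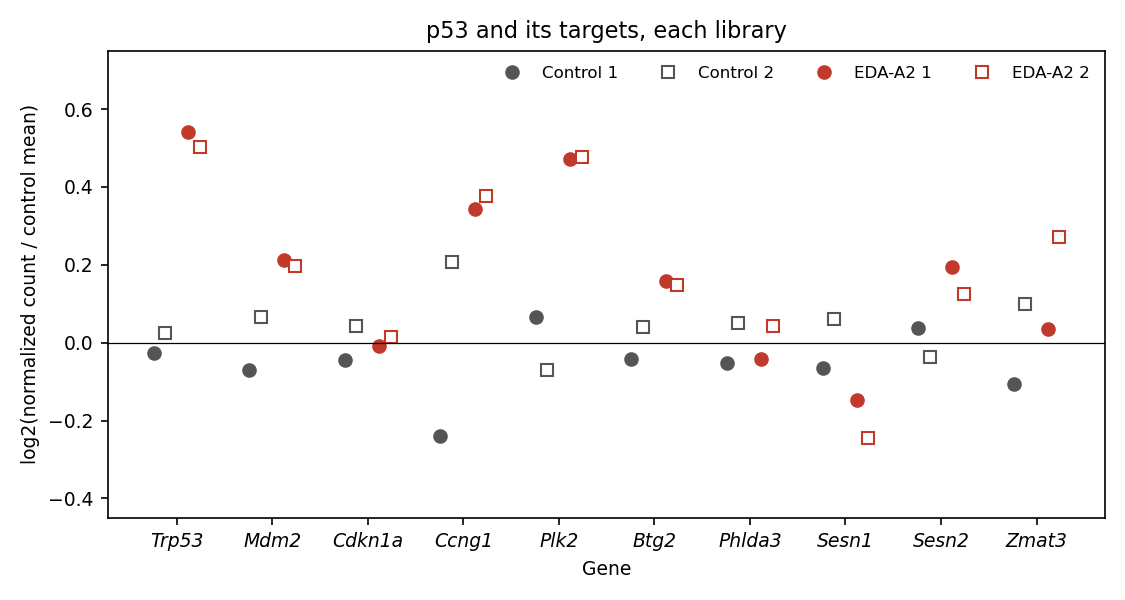
Normalized count of each gene in each of the 4 libraries, as log2 of its ratio to the control mean (vertical axis), with genes on the horizontal axis. Grey is control and red EDA-A2, with filled circles for replicate 1 and open squares for replicate 2. Trp53 and Plk2 stand clear of control, the Cdkn1a and Phlda3 points are interleaved around 0, and the 2 Ccng1 control points lie far apart.

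Paired half-sites for p53 were searched for in the 3000 bases before and the 3000 bases after the most upstream annotated start of each gene on both strands of GRCm39, since such pairs are the sequence through which p53 acts on its targets. A relaxed match kept both half-site cores and allowed at most 2 mismatches outside them and a spacer of at most 1 base. It was found for 4 of the 10 genes (Cdkn1a, Ccng1, Zmat3 and Plk2), and for 8.03% of 21623 protein-coding genes in windows of the same length. A strict match, without mismatch and with a spacer of up to 13 bases, was found for Cdkn1a and Zmat3 and for 1.76% of all genes. The same 4 genes matched around the start of the canonical transcript. The matches follow, on the strand of the gene, with both half-sites in capitals and 4 flanking bases on each side in lower case.

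Cdkn1a, relaxed match, upstream of the gene, plus strand, chr17:29309902-29309921: tcagGAACATGTCTTGACATGTTCagcc
Ccng1, relaxed match, intron, minus strand, chr11:40645763-40645782: cggaACGCAAGCCCGGGCTAGTCTgcgc
Zmat3, strict match, untranslated exon, minus strand, chr3:32418480-32418499: tgagAAACAAGCCCAGGCATGTCTtggg
Plk2, relaxed match, upstream of the gene, plus strand, chr13:110529416-110529435: tgaaCAACATGCCCGGGCTTGCATtgag
Plk2, relaxed match, upstream of the gene, plus strand, chr13:110530928-110530947: tggcGATCTTGCTTAGACTTGTTGcgta

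The Cdkn1a pair begins at -34 from the most upstream annotated start and at -2836 from the canonical start, and its first half-site also ends a strict match with a spacer of 12 bases. In Zmat3 a further relaxed match overlaps the one shown. For Trp53, Mdm2, Btg2, Phlda3, Sesn1 and Sesn2 no pair fell within the window, which says only that these letters are not there. The annotated starts of Btg2 and Sesn1 lie 8175 and 77504 bases from their canonical ones, and both places were searched. Thus 1 of the 2 genes that rose, Plk2, holds matches, and so do Cdkn1a, Ccng1 and Zmat3, which did not pass the test.

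**Figure D2:**
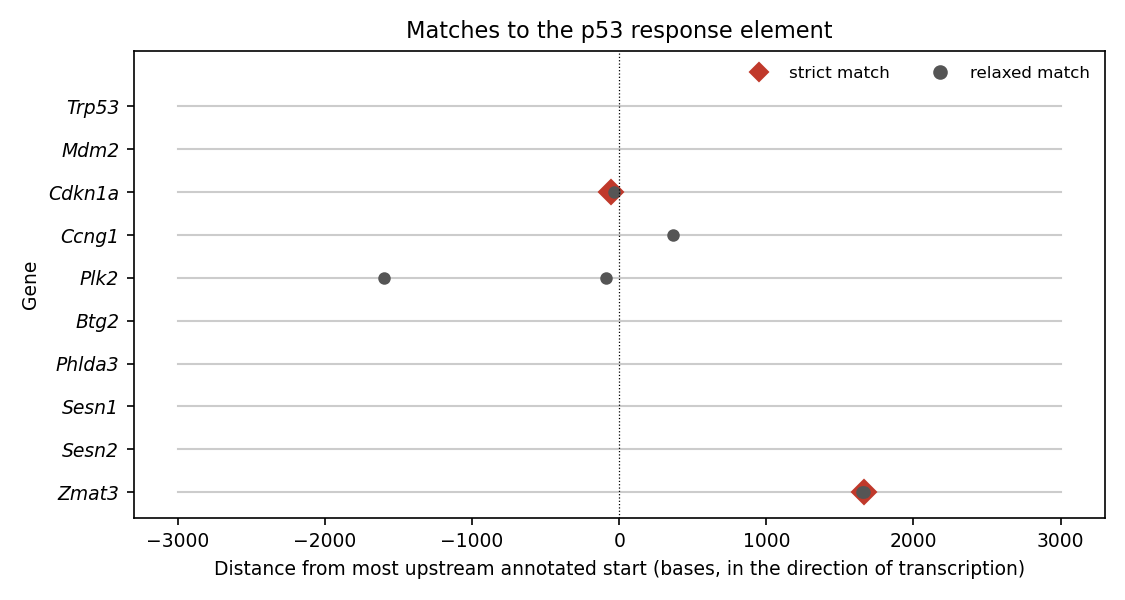
Position of each match to the paired p53 half-site relative to the most upstream annotated start of the gene, in bases in the direction of transcription (horizontal axis), for each of the 10 genes (vertical axis). Grey circles are relaxed and red diamonds strict matches, and the matches of Cdkn1a lie at -56 and -34 while those of Zmat3 lie at 1653 and 1664.

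Promoters from RefSeq (GRCm38.p6), spanning 250 bases before to 50 bases after each start, were matched by symbol for 9 of the 10 genes. The consensus of NF-κB, the transcription factor of TNF receptor signalling, was found on either strand in 4.51% of 32851 promoters and in 1 of these 9 genes, Trp53. At least 1 p53 half-site was found in 8.36% of promoters and in 5 of the 9 genes (Trp53, Mdm2, Cdkn1a, Ccng1 and Sesn1). Both shares count promoters and not genes, and the 9 genes have 11 promoters. Cdkn1a and Sesn1 each have another promoter with 0 half-sites, and the matching promoter of Cdkn1a holds 2. The promoter of Trp53 is shown because this gene rose and holds both motifs, which do not overlap. Its 300 bases match GRCm39 once, at chr11:69470935-69471234 on the plus strand, and the capitals mark the p53 half-site at -75 and the NF-κB consensus at -5 from the RefSeq start. The canonical start of Trp53 is at 69471109, which is 1440 bases from the most upstream annotated start. Both motifs thus lie past the canonical start, inside the annotated gene.

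Trp53 promoter: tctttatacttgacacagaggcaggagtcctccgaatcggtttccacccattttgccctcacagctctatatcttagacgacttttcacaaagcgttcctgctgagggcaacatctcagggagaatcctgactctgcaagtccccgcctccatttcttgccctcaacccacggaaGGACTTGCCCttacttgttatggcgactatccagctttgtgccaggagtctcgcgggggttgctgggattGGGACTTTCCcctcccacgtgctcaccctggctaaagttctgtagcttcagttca

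Trp53 (ENSMUSG00000059552, chromosome 11 from 69469669 to 69482701 of GRCm39) encodes p53 itself. Its normalized counts were 1015 and 1052 in control replicates 1 and 2, and 1504 and 1465 in EDA-A2 replicates 1 and 2. Both treated libraries were higher than both controls, and the libraries of each group differed little. The rise was from 1033 ± 26.1 to 1484 ± 27.1 (SD over 2 libraries), a 1.44-fold change. The log2 fold change was 0.52 ± 0.08 (SE, 95% interval 0.36 to 0.69, adjusted p = 0.000867 from edgeR). Exons of Trp53 share 263 bases with Wrap53 on the opposite strand, whose counts were 203 and 228 in control and 247 and 227 after EDA-A2.

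Mdm2 (ENSMUSG00000020184, chromosome 10 from 117524780 to 117546730) encodes the ubiquitin ligase that degrades p53 and is itself a p53 target, which closes a feedback loop. It had 4622 and 5082 normalized counts in control and 5625 and 5562 after EDA-A2. The treated libraries were higher than both controls, but the 2 controls differed by nearly as much as the gap to the treated ones. At a log2 fold change of 0.21 ± 0.07 (SE, 95% interval 0.06 to 0.35), Mdm2 did not pass the test (adjusted p = 0.128 from edgeR). Its relative Mdm4, which binds and restrains p53, had a log2 fold change of 0.10 (adjusted p = 0.552).

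Cdkn1a (ENSMUSG00000023067, chromosome 17 from 29309936 to 29319701) encodes the cyclin-dependent kinase inhibitor p21, the best known p53 target for arrest in G1. Normalized counts were 37230.2 and 39607 in control and 38180.3 and 38833 after EDA-A2. All treated values lay between the controls. The log2 fold change was 0.00 with a 95% interval of -0.14 to 0.15 (adjusted p = 0.99 from edgeR), so a rise as large as that of Trp53, 0.52, lies outside this interval. The antisense gene Dino, which shares 504 exon bases with Cdkn1a, had 8 to 13 counts per library.

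Ccng1 (ENSMUSG00000020326, chromosome 11 from 40639377 to 40646148) encodes cyclin G1, which recruits a phosphatase to MDM2. Its normalized counts were 15759 and 21476 in control and 23629 and 24176 after EDA-A2. The treated libraries were both higher and close together, while control replicate 1 lay far below control replicate 2. The log2 fold change was 0.36 ± 0.11 (SE, 95% interval 0.13 to 0.59), which did not pass (adjusted p = 0.0734 from edgeR). It was 0.16 without control replicate 1 and 0.60 without control replicate 2, so the size of the change depends on which control library is used. Among the alternatives with all 4 libraries, it was called only with the replicate number as a block (0.38, adjusted p = 0.00645 from edgeR). The DESeq2 Wald test did not call it (0.36, adjusted p = 0.649). Nor was it called when all genes with at least 1 count were kept (adjusted p = 0.523 from edgeR). Without EDA-A2 replicate 1, which leaves 1 treated library, the change was 0.38 and is given for its size only. Ccng1 shares 114 exon bases with Nudcd2 on the opposite strand.

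Plk2 (ENSMUSG00000021701, chromosome 13 from 110531015 to 110537379) encodes a polo-like kinase that acts in centriole duplication. It had 4507 and 4099 normalized counts in control and 5971 and 5989 after EDA-A2. The treated libraries nearly coincided and lay above both controls. Plk2 rose from 4303 ± 288 to 5980 ± 12.5 (SD over 2 libraries), 1.39-fold. The log2 fold change was 0.47 ± 0.07 (SE, 95% interval 0.33 to 0.62, adjusted p = 0.000806 from edgeR).

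Btg2 (ENSMUSG00000020423, chromosome 1 from 134002908 to 134015033) encodes an antiproliferative protein that recruits the deadenylase of the CCR4-NOT complex. Normalized counts were 1392 and 1473 in control and 1600 and 1586 after EDA-A2. The groups did not overlap, but the difference was small. Btg2 had a log2 fold change of 0.15 (95% interval -0.01 to 0.31, adjusted p = 0.353 from edgeR).

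Phlda3 (ENSMUSG00000041801, chromosome 1 from 135693809 to 135697686) encodes a small pleckstrin-homology protein that keeps Akt from the membrane. It had 7093 and 7613 normalized counts in control and 7139 and 7572 after EDA-A2, and both treated values lay between the controls. The log2 fold change was 0.00 with a 95% interval of -0.15 to 0.15 (adjusted p = 0.998 from edgeR).

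Sesn1 (ENSMUSG00000038332, chromosome 10 from 41685931 to 41784423) and Sesn2 (ENSMUSG00000028893, chromosome 4 from 132219335 to 132237815) encode sestrins, which restrain mTORC1 through GATOR2, and Sesn2 is also a known target of the stress factor ATF4. Sesn1 had 1247 and 1361 normalized counts in control and 1177 and 1101 after EDA-A2. It was the only one of the 10 genes with both treated libraries below both controls. Its log2 fold change was -0.20 (95% interval -0.37 to -0.02, adjusted p = 0.25 from edgeR). Sesn2 had 1778 and 1688 in control and 1985 and 1889.9 after EDA-A2, with both treated libraries above both controls. Its log2 fold change was 0.16 (95% interval 0.00 to 0.32, adjusted p = 0.302 from edgeR). Neither sestrin passed the test. The ratio of Sesn2 to Sesn1 counts within a library was 1.43 and 1.24 in control and 1.69 and 1.72 after EDA-A2. Sesn1 shares 548 exon bases with Cep57l1 on the opposite strand.

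Zmat3 (ENSMUSG00000027663, chromosome 3 from 32388941 to 32420163) encodes a zinc-finger protein that binds RNA. Its normalized counts were 3299 and 3807 in control and 3637 and 4288 after EDA-A2. The groups overlapped, and the 2 libraries of each group differed more than the group means. Zmat3 had a log2 fold change of 0.16 (95% interval -0.03 to 0.34, adjusted p = 0.44 from edgeR). It was 0.03 without EDA-A2 replicate 2 and 0.06 without control replicate 1, against 0.27 without EDA-A2 replicate 1 and without control replicate 2.

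**Figure D3:**
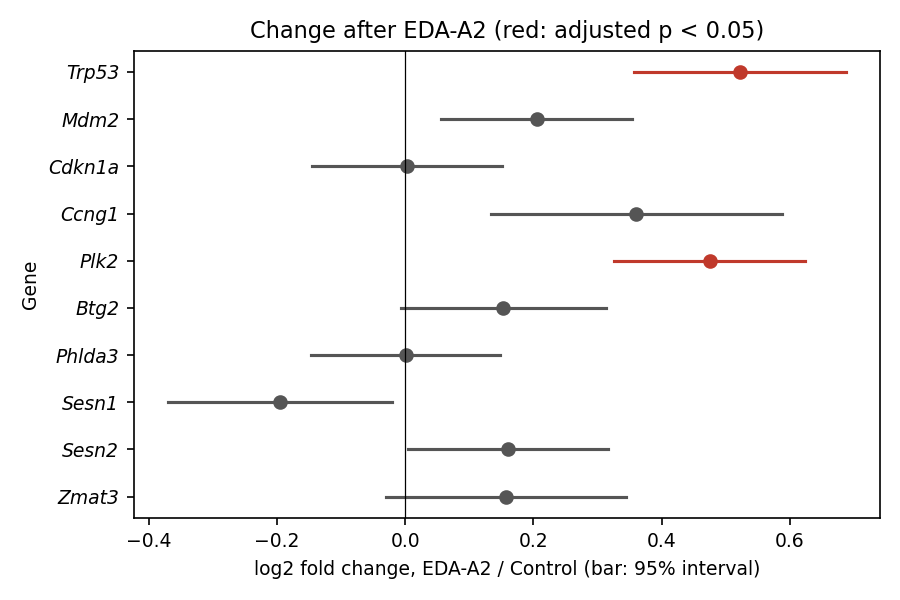
Log2 fold change of each gene after EDA-A2 against control (horizontal axis), with its 95% interval as a bar, from the edgeR fit over all 4 libraries. Red marks an adjusted p-value under 0.05, which only Trp53 (0.52) and Plk2 (0.47) reached, while Cdkn1a and Phlda3 sit at 0.00.

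Before adjustment, 6 of the 10 genes had a p-value under 0.05, which 15.6% of all genes tested also had. Besides Trp53 and Plk2 these were Mdm2 (0.0102), Ccng1 (0.00412), Sesn1 (0.0314) and Sesn2 (0.0445) by edgeR's test. The smallest log2 change called in any gene was 0.24, which the changes of Mdm2, Btg2, Zmat3 and both sestrins did not reach. Ccng1 exceeded that size but its standard error, 0.11, was the largest of the 10.

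The calls of Trp53 and Plk2 were kept under each other scaling, with protein-coding genes only, with at least 10 counts in every library, with the replicate block and by the DESeq2 Wald test. They were lost when all genes with at least 1 count were kept (adjusted p 0.0574 and 0.0732) and without either control library, where edgeR called no gene at all, while their log2 fold changes stayed between 0.41 and 0.58 under every alternative.

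Counts of a target can be set against those of Trp53 in the same library, a ratio that no scaling between libraries changes. Cdkn1a had 36.7 and 37.7 counts for each count of Trp53 in control and 25.4 and 26.5 after EDA-A2. The ratio of Mdm2 to Trp53 was 4.55 and 4.83 in control and 3.74 and 3.795 after EDA-A2. For both targets the treated ratios were lower in each library, since Trp53 moved more than its target. Plk2 had ratios of 4.44 and 3.90 in control and 3.97 and 4.09 after EDA-A2, and Ccng1 had 15.5 and 20.4, then 15.7 and 16.5. The groups overlapped for these ratios.

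Levels can be compared between genes only per length, so CPM (counts scaled to library size) were divided by kilobases of merged exon. On this scale Cdkn1a was highest in control myotubes at 215 ± 9.40 (SD, n = 2), followed by Ccng1 at 143 ± 31.1 and Phlda3 at 96.0 ± 4.81. Plk2 (28.4 ± 1.90) and Mdm2 (21.3 ± 1.43) were intermediate. Sesn2 (12.9 ± 0.475), Zmat3 (10.5 ± 1.06), Sesn1 (8.74 ± 0.544) and Btg2 (7.73 ± 0.310) were lower, and Trp53 itself was the lowest on this scale at 4.73 ± 0.120. The library values of neighbours in this order did not overlap in control.

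After EDA-A2 the level per length was 6.80 ± 0.124 for Trp53 and 39.5 ± 0.0827 for Plk2. The order was kept except that Btg2 (8.60 ± 0.0514) stood above Sesn1 (7.64 ± 0.363). Lengths matter here: with the longest annotated transcript in place of merged exons, Btg2 rather than Trp53 was lowest in control (8.08 and 8.61) and Mdm2 stood above Plk2 (48.4 and 43.2). Zmat3 and Sesn2 also changed places.

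**Figure D4:**
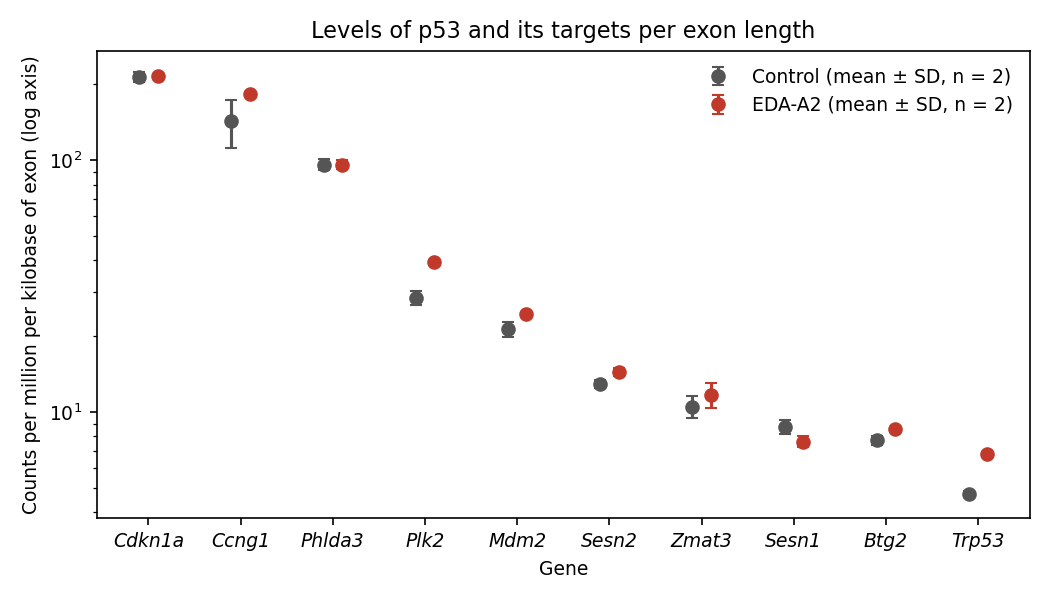
Level of each gene in CPM per kilobase of merged exon (vertical log axis), ordered by the control mean. Points are means and bars SD over 2 libraries, grey for control and red for EDA-A2. The genes span from 4.73 for Trp53 to 215 for Cdkn1a in control.

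The 2 control libraries were not alike for these genes. Control replicate 2 was higher than control replicate 1 for 8 of the 10 genes and for 39 of 55 further p53 targets listed below, against 50.1% of all genes tested. The median log2 ratio of control replicate 2 to 1 was 0.10 over the 10 genes, and their median change after EDA-A2 was 0.16. The log2 ratio between the controls was 0.45 for Ccng1, and only 0.862% of the 5684 genes whose control mean reached 1000 normalized counts differed by as much, where the SD of this ratio was 0.14. Between the EDA-A2 libraries the log2 ratio of Ccng1 was 0.03. For Trp53 and Plk2 it was 0.05 and -0.14 between the controls, smaller than their changes after EDA-A2.

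Other genes of the pathway were described with lists of known regulators and targets. In the list of the p53 family and its regulators, 19 of 20 genes were tested and none passed the test in either direction. Of the 19, 3 had an unadjusted p-value under 0.05, against 15.6% of all genes tested. The smallest p-values belonged to Trp53bp1, which binds p53 and damaged chromatin (log2 fold change 0.26, adjusted p = 0.0681 from edgeR), and to the p53 relative Trp63 (0.35, adjusted p = 0.125). Both were called with the replicate block (adjusted p = 0.0196 and 0.0247 from edgeR), and Trp53bp1 also under scaling to total counts (0.0405). Over the alternatives with all 4 libraries their adjusted p from edgeR or DESeq2 reached 0.379 for Trp53bp1 and 0.530 for Trp63. The damage kinases Atr and Atm had 0.21 and 0.14 (adjusted p = 0.25 and 0.465). Trp73 had at most 1 count per library and was not tested.

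Apoptosis targets of p53 held 2 genes that rose among 15 tested and none that fell, with a median log2 fold change of 0.17. Over all genes tested 2.45% were called higher and the median was -0.00. Of the 15 targets, 7 had an unadjusted p-value under 0.05, against 15.6% of all genes tested. Fas, a death receptor of the TNF receptor family, had 281 and 394 normalized counts in control and 630.3 and 634 after EDA-A2. Both treated libraries lay above both controls, which differed from each other. Its log2 fold change was 0.90 ± 0.13 (SE, adjusted p = 0.000806 from edgeR), the largest rise among the 55 further targets. Pmaip1, which encodes the BH3-only protein NOXA, rose from 2504 ± 153 to 3559 ± 154 (log2 fold change 0.51, adjusted p = 0.000647 from edgeR). Trp53inp1, a p53 cofactor and target, had 4227 and 6354 in control and 6785 and 7656 after EDA-A2. Its log2 fold change of 0.45 did not pass (adjusted p = 0.0705 from edgeR). Without EDA-A2 replicate 1, which leaves 1 treated library, it was 0.53, given for its size only. Among the alternatives with all 4 libraries, Trp53inp1 was called only with the replicate block (0.47, adjusted p = 0.000429 from edgeR). The DESeq2 Wald test did not call it, and over these alternatives its adjusted p from edgeR or DESeq2 reached 0.738. Like Ccng1, Trp53inp1 was low in control replicate 1, and its change was 0.19 without that library. Tnfrsf10b, a death receptor for TRAIL, had 0.28 (adjusted p = 0.0879 from edgeR). Over the alternatives with all 4 libraries its adjusted p from edgeR or DESeq2 ran from 0.0242 with the block to 0.413.

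Among 10 secreted, membrane and other targets, 2 rose and none fell, against 2.45% and 2.13% of all genes tested. Their median was 0.14, against -0.00 for all genes. Of the 10, 4 had an unadjusted p-value under 0.05 (15.6% of all genes tested). Eda2r, the receptor of EDA-A2, had 7024 and 7685 normalized counts in control and 8732 and 9951 after EDA-A2. Both treated libraries were above both controls (log2 fold change 0.35 ± 0.08 SE, adjusted p = 0.0178 from edgeR). Without EDA-A2 replicate 2, the higher of the treated libraries, the change was 0.25 and was not called (adjusted p = 0.300). Abcb1b, a drug efflux pump, rose from 144 ± 18.7 to 221 ± 18.3 (0.62, adjusted p = 0.0352), a call not made by DESeq2 (0.105) or without any 1 library (0.0883 to 0.330). Steap3, an iron reductase, had -0.31 (adjusted p = 0.216), with -0.11 without EDA-A2 replicate 1 (0.995) and -0.54 without EDA-A2 replicate 2 (0.0387).

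The other target lists held no gene that passed edgeR's test in either direction. Cell cycle targets, 8 in number, had a median of -0.09. Of these, 3 had an unadjusted p-value under 0.05, against 15.6% of all genes tested. All 3 were lower: Rprm (-0.89, adjusted p = 0.151 from edgeR), Gadd45a (-0.19, 0.176) and Fbxw7 (-0.20, 0.204). Ptprv, a phosphatase with at most 27 counts per library, had 0.64 (adjusted p = 0.457). DNA repair targets, also 8, had a median of 0.09 and 1 gene with an unadjusted p-value under 0.05 (15.6% of all genes tested). This was the translesion polymerase Polk, with 0.25 (adjusted p = 0.114 from edgeR). Over the alternatives with all 4 libraries its adjusted p from edgeR or DESeq2 ran from 0.0248 with the block to 0.490. In this list Rrm2b, Polh and Ddb2 had 0.16, 0.14 and -0.20. Metabolism targets, 14 in number, had a median of 0.03 and no gene with an unadjusted p-value under 0.05. Their smallest p-values belonged to Gpx1, Ddit4, Cpt1c and Tigar, with 0.14, 0.11, 0.18 and 0.14. Of these, Cpt1c was -0.05 without control replicate 1 and 0.46 without control replicate 2, and Ddit4 was 0.24 and -0.00. Over the 55 further targets together, 4 rose and none fell, against 2.45% and 2.13% of all genes tested, and the median was 0.10, against -0.00 for all genes. The median log2 ratio of control replicate 2 to control replicate 1 over the same 55 genes was 0.12, larger than their median after EDA-A2, and its part in these medians was not tested.

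Genes of dividing cells that are lowered when p53 and p21 act, 12 in number, had a median of -0.03, and none passed edgeR's test or had an unadjusted p-value under 0.05. The smallest p-values belonged to Ccnb1 (-0.19), Bub1 (0.13), Ccnb2 (-0.16) and Plk1 (-0.11). A list of Atf4 and its targets was added because Sesn2 is a known ATF4 target, though the list does not hold Sesn2. It had a median of -0.10 and held 1 gene that fell among 10, against 2.13% of all genes tested. Of the 10, 4 had an unadjusted p-value under 0.05 (15.6% of all genes tested). The gene that fell was Atf3 (-0.44, adjusted p = 0.0296 from edgeR). That call was not made under scaling to total counts (0.0649) or by DESeq2 (0.0624), or without any 1 library (0.160 to 0.301). Phgdh, Asns and Psat1, enzymes of amino acid synthesis, had -0.30, -0.21 and -0.18 (adjusted p = 0.0892, 0.204 and 0.275 from edgeR). For Phgdh the adjusted p from edgeR or DESeq2 ran from 0.0302 with the block to 0.518 over the alternatives with all 4 libraries. Without control replicate 1 the 3 changes were -0.11, -0.09 and -0.06, and without control replicate 2 they were -0.47, -0.31 and -0.28.

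**Figure D5:**
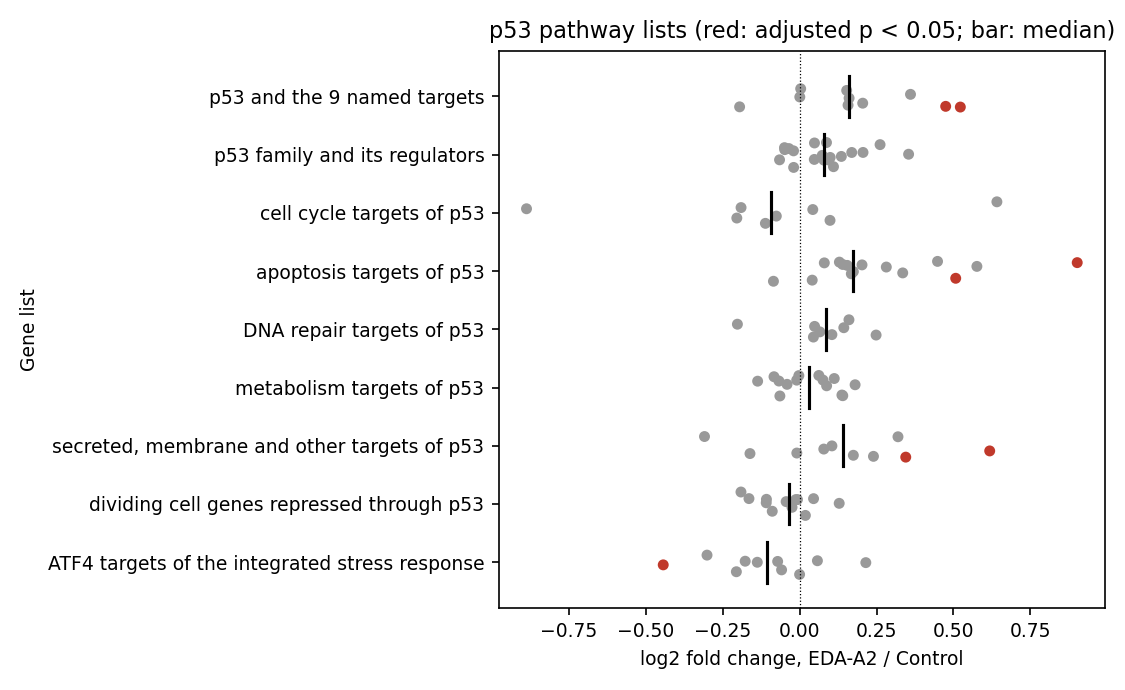
Log2 fold change after EDA-A2 against control (horizontal axis) of every tested gene in each list (rows). Each point is a gene, spread vertically only for legibility, red points have an adjusted p-value under 0.05 and black bars are medians. The red points are Trp53 and Plk2, then Fas and Pmaip1, Eda2r and Abcb1b on the right, and Atf3 on the left.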

How the data were processed

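Per the labels and the paper's methods, the authors checked reads with FastQC 0.11.9, trimmed them with Trim Galore 0.6.5, mapped them to GRCm39 with STAR 2.7.3a and deposited raw counts of read pairs per Ensembl gene from HTSeq 0.11.1, 1 file per library. The annotation release and the strand option of the counting are not given in the sources used here, so counts of genes with an antisense partner are uncertain. Summary lines of HTSeq were left out: 6.68% to 7.40% of pairs overlapped no counted feature, 0.946% to 0.986% were ambiguous and 4.56% to 4.76% did not map uniquely. Symbols, positions and lengths came from GENCODE M39, which matched 52610 of 53647 genes.

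Counts were tested in R 4.3.3 with edgeR 4.0.16 (TMM, filterByExpr at its defaults of 10 counts and 15 in total, estimateDisp, glmQLFit, glmQLFTest), with treatment as the only term and Benjamini-Hochberg adjustment over all genes tested at a threshold of 0.05. The standard error (SE) was obtained by dividing a log2 change by the root of its F statistic. Normalized counts were put on a common TMM-adjusted depth, the average of the 4 libraries. Where a symbol had 2 Ensembl genes, the one with more counts was used. Alternatives, including DESeq2 1.42.0, are given in the closing section. The members and gene lists were chosen with earlier results of these data known, as were the motif searches in RefSeq promoters and around canonical starts, which were added after seeing the data. The 4 genes of smallest p in each list were named, together with Eda2r, and Mdm4 was named after its values were seen. A gene that this rule would name is not reported here. On simulated counts for this comparison (14980 genes tested), 198 of 200 genes changed by 1 on the log2 scale were recovered, with 10 false calls. Every simulated gene had the same dispersion, 0.0038, and the changed genes were picked above a minimum count. The simulation therefore does not cover changes as small as those of the 10 genes, or genes that vary more. Sites were searched in Python 3.11.15.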

Additional observations from a re-analysis of the deposited data

How the results depend on the processing

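Genes called higher and lower over the whole table, 371 and 323, became 64 and 22 with no filter, and genes called lower became 194 when scaled by total counts and 529 once a replicate block was added, with 485 and 537 higher. Leaving out 1 library gave 0 to 238 higher and 0 to 170 lower. Without control replicate 1 or 2, where 1 control is assumed to vary like the EDA-A2 libraries, edgeR called none, although unadjusted p-values were under 0.05 for 2179 and 2449 genes. The 2 calls among p53 and its targets, Trp53 and Plk2, became 0 with no filter (5 unadjusted p-values under 0.05, and DESeq2 called 2 with the filter), 3 with the replicate block, Ccng1 being added, and 0 to 3 with 1 library left out. None of the 10 was called lower under any setting. Among 96 other pathway genes tested, the 4 called higher became 0 with no filter, 10 with the replicate block and 0 to 4 with 1 library left out (2 without EDA-A2 replicate 2). The 1 called lower became 2 with the block, 0 with no filter, total counts or the DESeq2 test, and 0 to 1 with 1 library left out. The 96 genes include the 10 genes of the ATF4 list. That list held Atf3, the gene called lower in the main fit, and Phgdh, which the block added. Deviations of libraries with the same replicate number correlated at 0.06, so the numbers do not establish pairs. In the window from 250 bases before to 50 after the most upstream start, 1 gene had a strict and 2 a relaxed p53 match. Of all genes searched, 0.0647% and 0.375% had one there. In the 6000 bases around canonical starts, 2 had a strict and 4 a relaxed match, against 1.77% and 7.92% of all genes. In the 300 bases around canonical starts, 0 had a strict match and 1, Plk2, a relaxed one (0.0370% and 0.296% of all genes). Scaling to total counts moved the median of all genes to 0.05. With 2 libraries per group, no log2 change smaller than 0.24 was called in any gene by edgeR with TMM and the filter.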
